A study of Mus musculus with 4 samples.

Results

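The 9 genes described here are 4 Janus kinases (Jak1, Jak2, Jak3 and Tyk2) and 5 STAT transcription factors (Stat3, Stat4, Stat5a, Stat5b and Stat6), taken by name from the 24418 genes listed in the deposited table. RNA had been sequenced from regulatory T (Treg) cells, the CD4+ T cells that express Foxp3 and restrain other immune cells. The Treg cells were sorted from spleens and lymph nodes of Foxp3yfpCre mice, in which the Foxp3 gene drives a fusion of yellow fluorescent protein and Cre recombinase, and all 4 libraries share this genotype. They were kept for 3 h with 100 ng/mL of the cytokine TSLP (2 libraries, TSLP 1 and TSLP 2) or with PBS as vehicle (2 libraries, PBS 1 and PBS 2). The comparison asks which transcripts differ after a short TSLP exposure. The mice of the study were 8 to 12 weeks old. The sources do not say whether the 2 libraries of a group came from separate animals or cultures, so the p-values measure the spread between these libraries, which may be technical.

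A cytokine binds a pair of receptor chains at the cell surface, and the Janus kinases held by those chains then phosphorylate each other and the receptor. STAT proteins dock on the phosphorylated tyrosines, are themselves phosphorylated on a single tyrosine, pair up and enter the nucleus to switch on target genes. TSLP signals through the TSLP receptor chain (Crlf2) with JAK2 and the interleukin-7 receptor α chain (Il7r) with JAK1, and STAT5 is its main factor. In Treg cells, STAT5 acts downstream of interleukin-2 and maintains Foxp3. The regulation of these proteins by phosphorylation is not visible in RNA, so the values below are transcript amounts only.

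The libraries held 11328132 (PBS 1), 10724392 (PBS 2), 11761234 (TSLP 1) and 10271571 (TSLP 2) reads on genes. A gene without a read could still hold up to 3 reads' worth of transcript at this depth, which is 0.255 to 0.292 cpm (reads scaled to the library's total on genes), a limit that covers counting error only. All 9 genes were far above it, with 754 reads (Tyk2 in PBS 1) as the smallest number. The marker genes of the labelled cell type were present in every library. Foxp3 stood at 222 cpm in PBS 1 and 472 in PBS 2, against 407 in TSLP 1 and 470 in TSLP 2. The 6 Treg markers together (Foxp3, Il2ra, Ctla4, Ikzf2, Tnfrsf18 and Ikzf4, of which Ctla4 was the most abundant) summed to 3020, 3559, 3533 and 3735 cpm in the same order, and Cd3e was between 232 and 261 cpm.

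Markers of other cells were low except for genes that T cells share. The 4 B cell markers summed to 0.618, 10.4, 4.08 and 9.35 cpm, with Cd79b highest and Pax5 without a read in any library. The 5 myeloid markers summed to 17.6, 11.9, 8.59 and 8.76 cpm, with Cd68 highest and Adgre1 without a read. The 2 CD8 T cell markers summed to 13.4, 7.83, 8.84 and 12.0 cpm, and of the 3 NK cell markers only Klrb1c had reads, at most 2.43 cpm. Of the genes listed for conventional T cells, Ccr7 was the most abundant, at 2094, 1534, 1688 and 1491 cpm, followed by Tcf7 at 471, 568, 506 and 562 cpm, and both are also made by resting Treg cells. Il2 reached at most 2.24 cpm. PBS 1 thus had the least Foxp3 and the most Ccr7. What these markers contribute to the values of the JAK and STAT genes was not tested. In such bulk samples, fewer cells of a type and less RNA per cell cannot be told apart.

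Library PBS 1 stood apart from the other 3 before any gene was compared. Over 2635 genes with a mean normalized count of at least 1000 and a known exon length, long genes were lower in PBS 1 than in the other libraries. The Spearman coefficient between exon length and the log2 difference was −0.659 across genes, and genes are not independent replicates. The same coefficient was 0.571 for PBS 2, 0.40 for TSLP 1 and 0.307 for TSLP 2. The median exon length was 5539 bases for the 9 genes and 4466 bases for the tested genes, and 7 of the 9 were longer than that. PBS 1 was the lowest of the 4 libraries for 6 of the 9 genes, against 43.9% of tested genes with a mean of at least 1000. The largest departure was that of Tyk2, which lay 0.87 lower in PBS 1 on the log2 scale than in the mean of the others, and still 0.70 lower once the trend over length had been removed. Jak3 (0.27), Stat4 (0.18) and Stat5a (0.07) were higher in PBS 1 on that scale. The log2 fold change of each of the 9 genes is therefore also given without PBS 1.

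**Figure D1:**
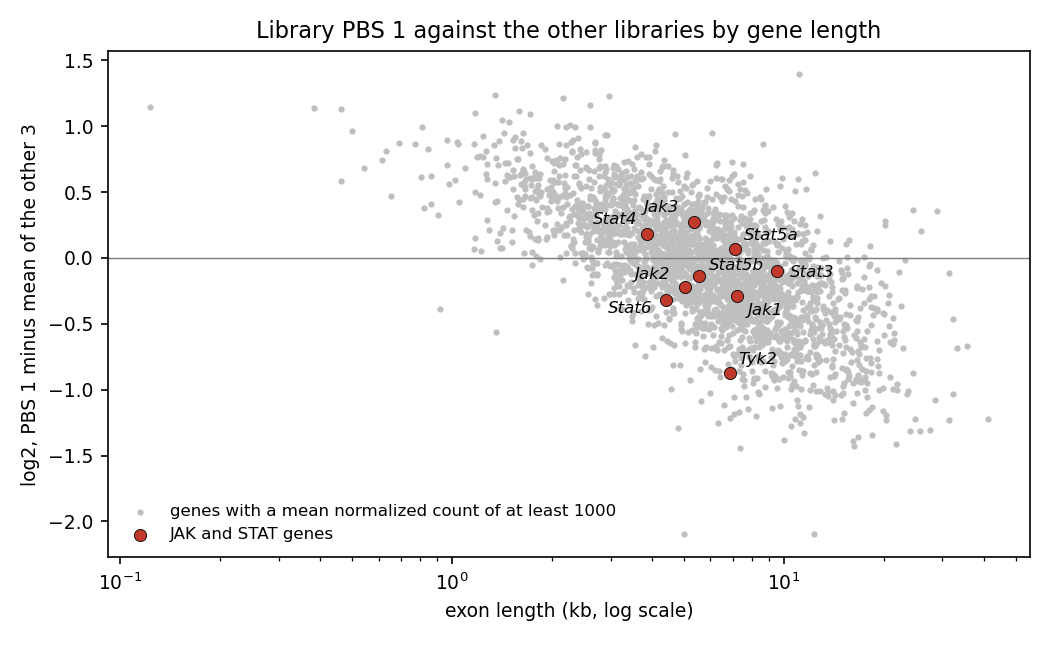
Log2 difference of library PBS 1 from the mean of the other 3 libraries (vertical axis) against the exon length of the gene in kb (horizontal axis, log scale), for genes with a mean normalized count of at least 1000 (grey points) and for the 9 JAK and STAT genes (red points). The grey points fall with length, and Tyk2 lies lowest of the 9, at −0.87.

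Stat5a and Stat5b are the pair of the group whose reads can be mistaken for each other, so their sequences are shown first. The coding sequences of the transcripts Stat5a-201 and Stat5b-201 (GENCODE M21, GRCm38) were identical at 2125 of 2343 aligned bases, or 90.7%, whereas the other 11 pairs of Janus kinases or STAT factors aligned here were identical at 57.8% to 65.0%. Both genes lie on chromosome 11. Stat5b occupies chr11:100780731-100850724 on the minus strand and Stat5a chr11:100859351-100885169 on the plus strand, head to head with 8626 bases between them. Stat3 follows at chr11:100885098-100939540 on the minus strand, and the 3′ ends of Stat5a and Stat3 share 72 exon bases on opposite strands. The longest stretch without a difference spanned 324 coding bases (coding positions 571 to 894), in exons 7 to 9 of 20 of Stat5a (chr11:100874023-100874983) and exons 6 to 8 of 19 of Stat5b (chr11:100797741-100798701). The first pair of lines shows where that stretch begins, with the last differing base before it in capitals (coding positions 541 to 600; in Stat5a chr11:100865496-100865505 and chr11:100874003-100874052, in Stat5b chr11:100801407-100801416 and chr11:100798672-100798721).
Stat5a: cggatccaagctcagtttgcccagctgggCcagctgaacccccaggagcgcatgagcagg
Stat5b: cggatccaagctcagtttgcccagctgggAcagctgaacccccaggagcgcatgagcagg
The second pair holds the codon of the tyrosine that Janus kinases phosphorylate, at residue 694 of Stat5a and residue 699 of Stat5b, which is TAC in both and lies at bases 10 to 12 of each line. The capitals mark the 6 differing bases, none of them in the codon (Stat5a chr11:100881746-100881789 and chr11:100882062-100882077, Stat5b chr11:100784253-100784296 and chr11:100783761-100783776).
Stat5a: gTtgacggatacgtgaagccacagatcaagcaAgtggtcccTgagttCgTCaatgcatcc
Stat5b: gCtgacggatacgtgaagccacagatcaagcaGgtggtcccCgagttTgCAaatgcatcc
The third pair is the stretch of 50 bases with the most differences, 19 in capitals, where no read could match both genes (coding positions 117 to 166; Stat5a chr11:100861454-100861465 and chr11:100861721-100861758, Stat5b chr11:100808396-100808407 and chr11:100804989-100805026).
Stat5a: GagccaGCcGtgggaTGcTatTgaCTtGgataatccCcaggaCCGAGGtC
Stat5b: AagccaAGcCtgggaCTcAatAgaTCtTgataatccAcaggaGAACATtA
The reads were 50 bases long. Of the 3556 windows of that length in the Stat5a transcript Stat5a-203, 608 (17.1%) occurred letter for letter in Stat5b, and 22 more lay in the overlap with Stat3. Those 608 windows were 12.1% of the 5013 in Stat5b. How the counting treated reads that fit both genes is not given in the sources used here, so the separate values of Stat5a and Stat5b are uncertain to that extent.

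The other 7 genes shared few or no windows with a gene of the table. Jak3 (chr8:71676296-71690575, plus strand) overlaps Insl3 on the same strand, and 355 of its 3970 windows (8.94%) were also in Insl3, which was given 15, 7, 14 and 7 reads. The searched transcripts of Jak1 (chr4:101152367-101265282, minus strand), Jak2 (chr19:29251828-29313080, plus strand), Tyk2 (chr9:21104068-21131243, minus strand) and Stat6 (chr10:127642986-127660957, plus strand) shared no window with another gene. The Stat3 transcript searched, Stat3-203, shared none either, and Stat4 (chr1:51987148-52107189, plus strand) none with a listed gene. Of the 2933 windows of Stat4, 840 (28.6%) were also in Gm28177, a transcript of the annotation that the table does not list. Tyk2 shares 554 exon bases with an antisense gene, 1700084C06Rik, that the table does not list, and Stat6 shares 40 with Nab2 on the other strand. The library kit keeps the strand, but the strand setting of the counting is not given in the sources used here, so reads from the 2 strands might have been added together at these places. The palindromic STAT5 motif TTCNNNGAA, whose N positions take any base and which reads the same on both strands, was in 0 of the 12 RefSeq promoters of the 9 genes on GRCm38.p6 (250 bases before to 50 after each start), and in 2726 of all 32851 such promoters (8.30%).

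None of the 9 genes passed the test between TSLP and PBS. All 9 passed the filter on low values, which asked 2 or more libraries to reach a normalized count of 10, and by limma 0 of them had an adjusted p under 0.05, where 0 of the 11392 genes tested did (0%). No member had an unadjusted p under 0.05 either, where 192 of the tested genes (1.69%) did, and none had one without PBS 1. On the recovered reads, edgeR gave 234 genes an unadjusted p under 0.05 and DESeq2 gave 286, and each called 0 after adjustment. For 3 of the 9 genes, both TSLP libraries exceeded both PBS libraries (Jak1, Jak2 and Stat3), beside 14.5% of tested genes. The reverse held for 0 of the 9, beside 14.4%. The other 6 overlapped. With a single library left out, the groups did not overlap for 6 of the 9 genes without PBS 1 (64.1% of tested genes), 8 without PBS 2 (76.3%), 4 without TSLP 1 (59%) and 6 without TSLP 2 (56.8%). The fitted log2 fold change was positive for 5 and negative for 4, with a median of 0.04, beside 0.01 over all tested genes. The median size of the change without its sign was 0.14, beside 0.26 over all tested genes and 0.15 over the 2716 tested genes with a mean of at least 1000.

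Among the kinases, the JAK1 and JAK2 transcripts come first, since these kinases serve the TSLP receptor. Jak1, which also serves the interleukin-2, interleukin-6 and interferon receptors, had a normalized count of 11166 in PBS 1 and 13028 in PBS 2, against 14402 in TSLP 1 and 13451 in TSLP 2. PBS 1 was the lowest, and the lower TSLP library was above the higher PBS library by less than the gap within PBS. The group means were 12097 ± 1317 (SD, n = 2) for PBS and 13926 ± 672 for TSLP. Fitted over all 4 libraries, the log2 fold change was 0.21 with a standard error of 0.25 and a 95% interval of −0.35 to 0.77 (limma adjusted p = 0.9999), and it was 0.10 without PBS 1.

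Jak2, which serves the TSLP receptor chain and several haematopoietic growth factor receptors, had normalized counts of 8609.8 and 9665 in PBS 1 and PBS 2 and 10597 and 9895 in TSLP 1 and TSLP 2. PBS 1 was again the lowest library, and the groups did not overlap. The means were 9137 ± 746 and 10246 ± 496 (SD, n = 2 each). Its fitted log2 fold change was 0.17 with a standard error of 0.23 and an interval of −0.36 to 0.70 (limma adjusted p = 0.9999), and 0.08 without PBS 1. Jak1 and Jak2 kept both TSLP libraries above the PBS libraries when the trend over gene length was removed, with log2 fold changes of 0.13 and 0.17.

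Jak3, the kinase bound to the common γ chain of the interleukin-2 and interleukin-7 receptors, had 1345 in PBS 1 and 1161 in PBS 2, against 1022 in TSLP 1 and 1169 in TSLP 2. The groups overlapped, since TSLP 2 lay between the PBS libraries. Its fitted log2 fold change was −0.19 with a standard error of 0.23 and an interval of −0.71 to 0.32 (limma adjusted p = 0.9999), and −0.09 without PBS 1.

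Tyk2, which serves the type I interferon, interleukin-10 and interleukin-12 receptors, had 731 in PBS 1 and 1365 in PBS 2, against 1307 in TSLP 1 and 1336 in TSLP 2. PBS 2 and the TSLP libraries lay close together and PBS 1 far below them, so the PBS mean of 1048 had an SD of 448 while the TSLP mean of 1321 had an SD of 20.5. The log2 fold change was 0.40, the largest of the 9, with a standard error of 0.30 and an interval of −0.28 to 1.09 (limma adjusted p = 0.9999). It was −0.05 without PBS 1 and 0.85 without PBS 2, where the limma p was 0.00652 and the adjusted p 0.262, in a fit that gave 1858 genes an unadjusted p under 0.05. The value of Tyk2 thus turned on a single library.

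**Figure D2:**
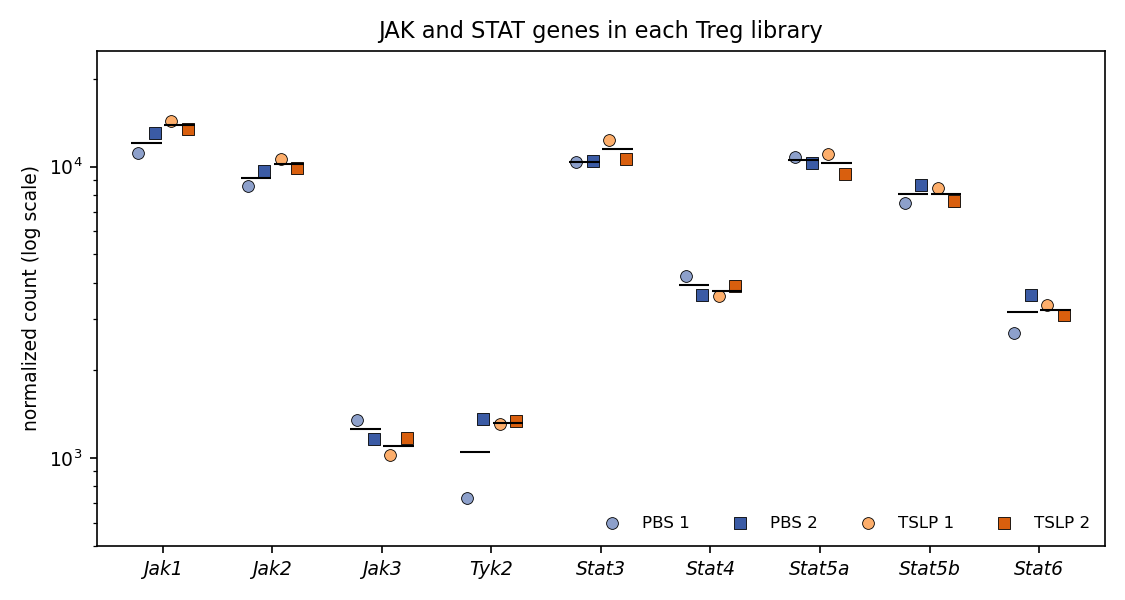
Normalized read count (vertical axis, log scale) of each of the 9 genes (horizontal axis) in libraries PBS 1, PBS 2, TSLP 1 and TSLP 2, one marker per library, with a short line at the mean of each group. Tyk2 in PBS 1, at 731, is the point that departs most from the other libraries of its gene.

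Among the STAT factors, Stat5a and Stat5b carry the response to TSLP, interleukin-2 and interleukin-7. Stat5a had normalized counts of 10761 in PBS 1 and 10286 in PBS 2, against 11063 in TSLP 1 and 9464 in TSLP 2. The TSLP libraries enclosed the PBS libraries, with TSLP 1 the highest and TSLP 2 the lowest of the 4. The log2 fold change was −0.04 with a standard error of 0.24 and an interval of −0.58 to 0.50 (limma adjusted p = 0.9999), and −0.01 without PBS 1. Stat5b had 7485.5 and 8682 in PBS 1 and PBS 2 and 8453 and 7611 in TSLP 1 and TSLP 2. Here the PBS libraries enclosed the TSLP libraries. For Stat5b the log2 fold change was −0.01 with a standard error of 0.23 and an interval of −0.53 to 0.52 (limma adjusted p = 0.9999), and −0.11 without PBS 1.

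Stat3, the factor of the interleukin-6, interleukin-10 and interleukin-21 receptors, had 10403 in PBS 1 and 10431 in PBS 2, against 12385 in TSLP 1 and 10624 in TSLP 2. Both TSLP libraries were above the PBS libraries, but TSLP 2 lay close to them and only TSLP 1 stood out. The log2 fold change was 0.14 with a standard error of 0.24 and an interval of −0.40 to 0.68 (limma adjusted p = 0.9999), and 0.14 without PBS 1. Stat3 has the longest exons of the 9 genes, 9527 bases, and with the trend over length removed its log2 fold change was 0.01 and the groups overlapped.

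Stat4, the factor of interleukin-12 signalling in T helper 1 cells, had 4206 and 3619 in PBS 1 and PBS 2 and 3608 and 3891 in TSLP 1 and TSLP 2. The groups overlapped, and PBS 1 was the highest library. Its log2 fold change was −0.06, with an interval of −0.55 to 0.43 (limma adjusted p = 0.9999), and 0.05 without PBS 1. Stat6, the factor of interleukin-4 and interleukin-13, had 2689.7 and 3639.8 in PBS 1 and PBS 2 and 3341 and 3089 in TSLP 1 and TSLP 2. Both TSLP libraries lay between the PBS libraries. Its log2 fold change was 0.04, with an interval of −0.49 to 0.56 (limma adjusted p = 0.9999), and −0.18 without PBS 1.

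Stat2, a STAT gene outside the group, serves the interferon receptors. It had 1261 and 1286 with PBS and 1189.8 and 1050.3 with TSLP. Both TSLP libraries were lower, with a log2 fold change of −0.19 that did not pass limma's test (adjusted p = 0.9999).

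**Figure D3:**
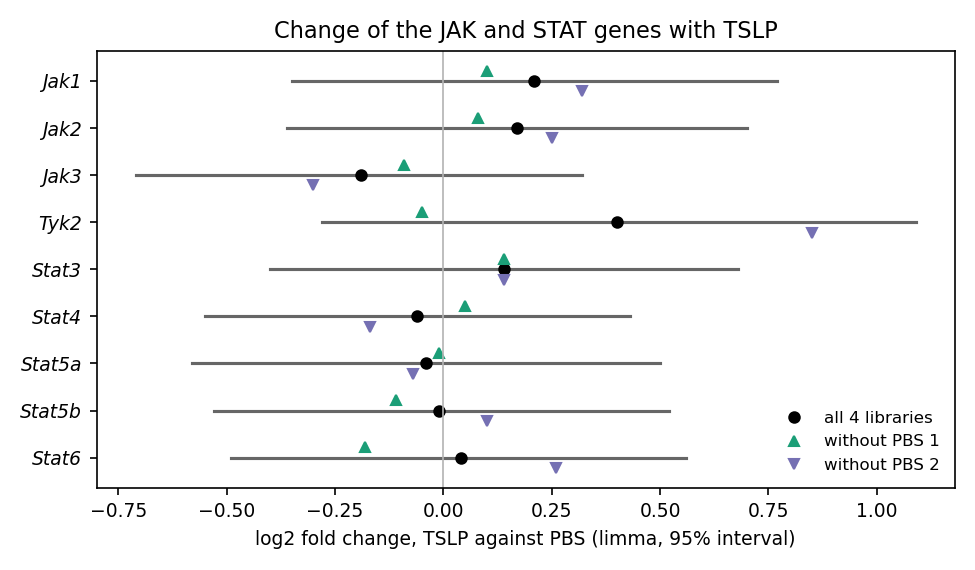
Log2 fold change of TSLP against PBS (horizontal axis) for each of the 9 genes (vertical axis), as a black point for all 4 libraries with limma's 95% interval as a bar, and as triangles without PBS 1 and without PBS 2. Every bar crosses 0, and the triangles of Tyk2 lie farthest apart, at −0.05 and 0.85.

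The levels of the 9 genes were compared per length of exon, as RPKM (reads scaled to the exon length in kb and to the library size) computed from the recovered reads with the union of each gene's exons. Jak2 had the highest level, 177 ± 14.9 RPKM (SD, n = 4 libraries), followed by Jak1 with 166 ± 17.2. Stat5a (134 ± 7.20) and Stat5b (134 ± 10.3) came next, then Stat3 (106 ± 7.98), Stat4 (90.9 ± 6.64) and Stat6 (66.6 ± 8.84). Jak3 (20.2 ± 2.31) and Tyk2 (15.9 ± 4.16) were far lower. Jak2 was at percentile 98.3 and Tyk2 at percentile 71.2 of the RPKM of the tested genes with a length.

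Most neighbours in this order differed in the same direction in all 4 libraries. Jak2 was above Jak1 by 1.06 to 1.11 times, Jak1 above Stat5a by 1.02 to 1.40 times, and Stat6 above Jak3 by 2.43 to 3.97 times. Stat5a and Stat5b did not differ beyond their spread, since Stat5a was above Stat5b in 2 of the 4 libraries. That holds for the union of exons, and Stat5a was above Stat5b in all 4 libraries with the longest transcript (1.56 to 1.89 times) and with the coding length (1.17 to 1.42 times). Jak3 and Tyk2 did not either, since the ratio of 2.36 in PBS 1 was no more than 1.12 in the other libraries. The positions of Jak2, Jak1, Stat5a, Stat5b and Stat3 depended on which length was used. Stat5b stood above Stat3 with the union of exons. With the longest transcript, Stat3 was above Stat5b in all 4 libraries, by 1.04 to 1.26 times. With the longest transcript of each gene, Jak1 (244 RPKM) and Stat5a (241) stood above Jak2 (177) and Stat3 (167), and with the coding length Stat3 (436) and Stat5a (399) stood above Jak1 (346) and Jak2 (262). By their means, Stat4, Stat6, Jak3 and Tyk2 kept the last places in this order under all 3 lengths. With the coding length, the order of Jak3 and Tyk2 rested on PBS 1. Jak3 to Tyk2 was 2.02 there, but 0.933 in PBS 2, 0.858 in TSLP 1 and 0.961 in TSLP 2. With the longest transcript this ratio was 2.195, 1.014, 0.933 and 1.044 in the same order.

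**Figure D4:**
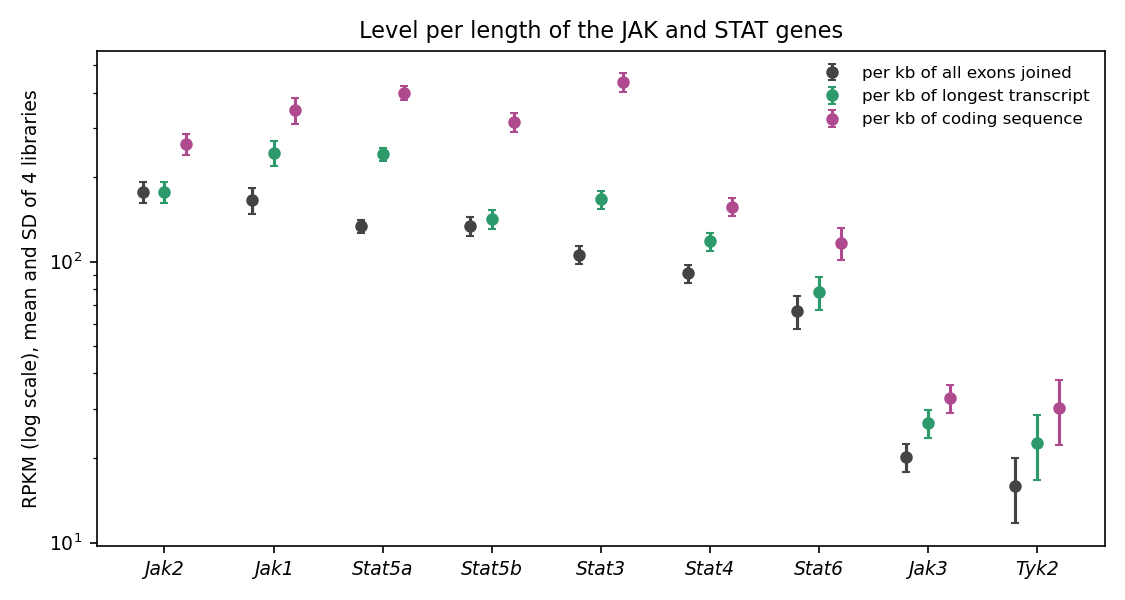
Level of each of the 9 genes (horizontal axis) in RPKM (vertical axis, log scale), with colours for the 3 lengths used (all exons joined, longest transcript, coding sequence). Points are means and bars SDs of the 4 libraries, and Jak3 and Tyk2 lie below the other 7 genes with each length.

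Of the summed RPKM of the 4 kinases, Jak1 made up 43.7% ± 0.722 (SD, n = 4) and Jak2 46.8% ± 0.476, while Jak3 made up 5.40% ± 1.12 and Tyk2 4.15% ± 0.832. The order of Jak1 and Jak2 in these shares holds for the union of exons, where their ratio was 0.933. That order reversed with other lengths, where the ratio was 1.37 (longest transcript), 1.32 (coding length) and 1.35 (number of unshared 50-base windows). The share of Jak3 was 6.95% in PBS 1 and 5.24% in PBS 2, against 4.26% in TSLP 1 and 5.15% in TSLP 2, with PBS 1 highest and TSLP 1 lowest. Of the summed RPKM of the 5 STAT genes, Stat5a made up 25.2% ± 1.18, Stat5b 25.2% ± 1.16, Stat3 19.9% ± 1.19, Stat4 17.2% ± 1.84 and Stat6 12.5% ± 1.344. The equal shares of Stat5a and Stat5b rest on the union of exons, since their ratio was 1.70 with the longest transcript as length. It was 1.94 when the length was the number of 50-base windows that no other listed gene holds. All reads of each gene were divided by that number, and reads inside those windows were not counted apart. STAT5 transcripts of both genes were thus the largest part of this sum in every library.

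Ratios within a library do not depend on its depth, and 6 of them were compared between TSLP and PBS by a two-sided exact permutation test, which cannot give a p below 0.333 with 2 libraries against 2. The RPKM ratio of Stat5a to Stat5b was 1.12 in PBS 1 and 0.920 in PBS 2, against 1.02 in TSLP 1 and 0.966 in TSLP 2. The groups overlapped, and the log2 ratio differed by −0.03 (exact permutation p = 1), and by 0.11 without PBS 1. The ratio of Jak1 to Jak2 was the steadiest of the 6, at 0.903, 0.938, 0.946 and 0.946 in the same order, with a log2 difference of 0.04 (exact permutation p = 0.333) that turned to −0.04 with the length trend removed. Jak1 to Jak3 was 6.15, 8.31, 10.4 and 8.52. Both TSLP libraries were above both PBS libraries, TSLP 2 by little, with a log2 difference of 0.40 (exact permutation p = 0.333), and it was 0.18 without PBS 1, 0.62 without PBS 2 and 0.25 without TSLP 1. Stat3 to the sum of Stat5a and Stat5b was 0.382, 0.364, 0.423 and 0.413, again with both TSLP libraries above, and a log2 difference of 0.16 (exact permutation p = 0.333), which was 0.08 with the length trend removed. Jak1 to Tyk2 (log2 difference −0.20) and Stat6 to the sum of Stat5a and Stat5b (0.06) overlapped, each with an exact permutation p of 1. Both changed sign without PBS 1, to 0.14 and −0.12, and without PBS 2 they were −0.54 and 0.24. Adjusted over the 6 ratios, the smallest p is 0.667.

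**Figure D5:**
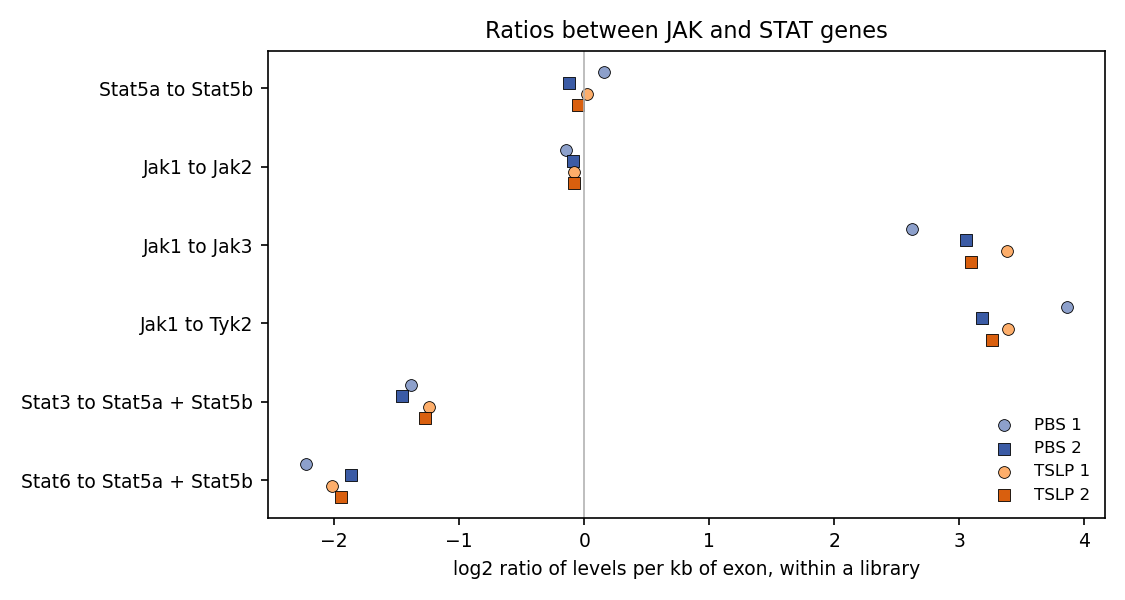
Log2 ratio of RPKM (horizontal axis) within each library for the 6 ratios between the genes (vertical axis), one marker for each of PBS 1, PBS 2, TSLP 1 and TSLP 2. Stat5a to Stat5b and Jak1 to Jak2 lie near 0, and PBS 1 is the highest or lowest library in each ratio but that of Stat3 to the sum of Stat5a and Stat5b.

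The genes whose pattern over the 4 libraries was most like that of Stat5a and Stat5b were found by the distance between centred log2 normalized counts, among tested genes of similar mean. For Stat5a these were Foxo1 (distance 0.0745), Lrrc32 (0.0854) and Hnrnpu (0.0867), of 316 candidates with a median distance of 0.377. For Stat5b they were Whsc1l1 (0.0321), Ubn1 (0.0648) and Zhx2 (0.0804), of 470 candidates with a median of 0.355. Foxo1 encodes a forkhead factor of resting T cells, and Lrrc32 encodes GARP, which holds latent TGF-β on the Treg cell surface. Stat5a and Stat5b lay 0.207 from each other, nearer than the median candidate but farther than these. With 4 libraries such likeness is a description only.

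The TSLP receptor pair, singled out here because it is the entry point of the pathway, was present in every library. Crlf2 had normalized counts of 585 and 473 with PBS and 498 and 578 with TSLP, and Il7r had 1571 and 2192 against 2094 and 2015. Both overlapped, with log2 fold changes of 0.03 and 0.15. Of the 25 cytokine receptor chains listed, 20 passed the filter, 12 with a positive and 8 with a negative log2 fold change, and Lifr and Osmr had no read in any library. Their median was 0.09, none had an unadjusted p under 0.05, and the groups did not overlap for 4 (3 higher, 1 lower), or 20%, beside 28.9% of all tested genes. The most abundant were Ifngr1, the interferon-γ receptor chain that binds the ligand (11173 and 8019 against 10469 and 9779), the common γ chain Il2rg (9668 and 7893 against 7113 and 8278) and Il2rb, shared by the interleukin-2 and interleukin-15 receptors (7752 and 7956 against 9356 and 7321). All 3 overlapped between the groups.

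All 19 inhibitors of the pathway were tested, 11 with a positive and 8 with a negative log2 fold change. Their median was 0.05 (0.01 with the length trend removed, −0.02 without PBS 1 or without TSLP 1), and none had an unadjusted p under 0.05. Both TSLP libraries were above both PBS libraries for 3 of them and below for 1 (21%, beside 28.9% of all tested genes). The most abundant was Ptprc, the phosphatase CD45, with 18573 and 21325 with PBS and 24063 and 22742 with TSLP. The groups did not overlap, and the log2 fold change was 0.23 with a standard error of 0.27. Cish, a STAT5-induced inhibitor, had 4223 and 2719 against 3813 and 2799.7, with replicate 1 high in both groups. Ptpn1, a phosphatase that acts on JAK2 and TYK2, had 2567 and 2249 against 2162 and 2178, lower in both TSLP libraries, with a log2 fold change of −0.15.

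Of the 7 cofactors, 5 had a positive and 2 a negative log2 fold change. Their median was 0.13 (0.03 with the length trend removed, −0.05 without PBS 1), and none had an unadjusted p under 0.05. Both TSLP libraries were above both PBS libraries for 1 of them and below for 1 (28.6%, beside 28.9% of all tested genes). Crebbp and Ep300, the paired acetyltransferases that STAT factors recruit, were both lowest in PBS 1. Crebbp had 1895 and 4165 against 4361 and 3336, and Ep300 had 1852 and 3889 against 4244 and 3328.5. The groups of both overlapped, since PBS 2 was at the level of the TSLP libraries. Irf9, the partner of Stat2, had 1284 and 1137 against 1117 and 1078.5, lower in both TSLP libraries, with a log2 fold change of −0.14.

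Of the 12 STAT5 target genes, both TSLP libraries were above both PBS libraries for 4 and below for 0 (33.3%, beside 28.9% of all tested genes). Of these 12, 4 had a positive and 8 a negative log2 fold change, with a median of −0.06. The sign of this median turned on single libraries. It was 0.19 without PBS 1, −0.32 without PBS 2, −0.31 without TSLP 1 and 0.18 without TSLP 2. Ccnd2, which encodes cyclin D2, was the one with an unadjusted p under 0.05, beside 1.69% of all tested genes. No gene of this list had one with the length trend removed or with a replicate block, and 1 gene had one with both. Ccnd2 had 2475.5 and 2693 with PBS and 3740.1 and 3560.5 with TSLP, and its log2 fold change was 0.50 (SE 0.21; limma adjusted p = 0.9999). Il2ra, the high-affinity interleukin-2 receptor chain, had 3753 and 4784 against 4802 and 5343, higher in both TSLP libraries, with a log2 fold change of 0.26 (limma adjusted p = 0.9999). Pim1, a kinase induced by STAT5, had 11125 and 9213 against 12347 and 7908, with TSLP 1 highest and TSLP 2 lowest. No gene of the 4 lists had an adjusted p under 0.05.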

How the data were processed

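Treg cell RNA was sequenced in 2 PBS and 2 TSLP libraries. The authors mapped 50-base single-end reads to mm10 with Hisat2, and HTSeq 1.99.2 gave the reads per gene. The annotation, strand and ambiguous-read settings of the counting are not given in the sources used here. The deposited values are a signal, namely counts that the authors scaled by library with the size factors of DESeq2 1.34.0, here called normalized counts. Multiplied by that factor, 100% of the deposited values were whole reads (tolerance 0.01), and 27 gene names had turned into dates.

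limma 3.58.1 (R 4.3.3) was fitted on log2(normalized count + 1) over the 11392 genes that reached a normalized count of 10 in 2 or more libraries, with Benjamini-Hochberg adjustment over all of them. Fold changes on this scale are TSLP against PBS and understate changes of low genes. Alternatives were edgeR 4.0.16 and DESeq2 1.42.0 on the recovered reads, other scalings, filters and pseudocounts, removal of the trend over exon length, a replicate block, each library left out, and other lengths. Exon lengths, positions and transcripts came from GENCODE M21 on GRCm38 (23348 of 24418 names found) and promoters from RefSeq. The members and lists were chosen with earlier results of these data known. Named are the members, Stat2, and per list the genes with p under 0.05 and the 3 with the highest mean. Other genes are named as stated. A gene of the family and a marker gene of the lists are not reported here.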

Additional observations from a re-analysis of the deposited data

How the results depend on the processing

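Over 11 alternatives that kept all 4 libraries, each of the 9 log2 fold changes kept its sign and 0 genes had an adjusted p under 0.05. The lowest unadjusted p of a member was 0.130 (Tyk2). Genes with an unadjusted p under 0.05 numbered 192, but 358 with no filter on low values, and 388 with the length trend removed and a replicate block. The block alone gave 258 genes, and it changed no call of a member. Taken over all tested genes, same-numbered libraries did not deviate together, so the numbers were not taken as pairs. Across genes, r of their deviations was 0.00072 for all those tested and 0.0931 for those whose mean reached 1000. This does not hold for every gene. Of the STAT5 targets named, Cish and Pim1 were higher in replicate 1 of both groups, Il2ra was lower there, and Ccnd2 differed between the groups.

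Leaving out each library in turn, with the lone library assumed to vary like the other group, gave 79 to 1858 genes with an unadjusted p under 0.05 and 0 with an adjusted p under 0.05. The log2 fold change ran from 0.10 to 0.32 for Jak1, 0.08 to 0.25 for Jak2, −0.30 to −0.09 for Jak3, −0.05 to 0.85 for Tyk2, 0.03 to 0.25 for Stat3, −0.17 to 0.05 for Stat4, −0.15 to 0.07 for Stat5a, −0.11 to 0.10 for Stat5b and −0.18 to 0.26 for Stat6. The groups of 4 (without TSLP 1) to 8 (without PBS 2) of the 9 members then did not overlap, beside 59% and 76.3% of all tested genes in the same settings. The log2 difference between TSLP and PBS ran from −0.17 to 0.11 for Stat5a to Stat5b, 0.18 to 0.62 for Jak1 to Jak3, −0.54 to 0.14 for Jak1 to Tyk2, and −0.12 to 0.24 for Stat6 to the sum of Stat5a and Stat5b. The list medians ran from 0.04 to 0.09 (receptors), −0.02 to 0.24 (inhibitors), −0.05 to 0.34 (cofactors) and −0.32 to 0.19 (STAT5 targets), and the genes with an unadjusted p under 0.05 from 0 to 6, 0 to 3, 0 to 2 and 0 to 3.

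With the length trend removed, the log2 difference of Jak1 to Jak2 reversed to −0.04, the receptor median was 0.13 (also with the block; 0.05 with a minimum of 50), and 0 STAT5 targets had an unadjusted p under 0.05 (0 with the block alone, 1 with both). The cause was not tested. Levels depended on the length by construction. With the longest transcript, RPKM was 244 for Jak1, 26.7 for Jak3, 22.6 for Tyk2, 167 for Stat3, 118 for Stat4, 241 for Stat5a and 77.7 for Stat6. With the coding length it was 346 for Jak1, 262 for Jak2, 32.7 for Jak3, 30.1 for Tyk2, 436 for Stat3, 157 for Stat4, 399 for Stat5a, 314 for Stat5b and 117 for Stat6. Ratios were also taken with the longest transcript, the coding length and the number of unshared 50-base windows as length. The last was chosen after seeing the data. In that order, Stat5a to Stat5b was 1.70, 1.27 and 1.94, and Jak1 to Jak2 was 1.37, 1.32 and 1.35. Stat3 to the sum of Stat5a and Stat5b was 0.434, 0.610 and 0.455, and Stat6 to that sum was 0.202, 0.163 and 0.158. Jak1 to Jak3 was 10.6 with the coding length. With 2 libraries per group, the narrowest of the members' 95% intervals (Stat4) ran from −0.55 to 0.43. The smallest change that could be detected was not tested. A missing call therefore does not show that a member was unchanged.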
